A study of Epimedium pubescens with 12 samples.

Results

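The scarce predicted miRNAs of Epimedium pubescens leaves were 78 of the 220 miRNAs in the count table, and 78 of its 198 predicted ones. They were chosen by their measured counts: a predicted miRNA (a name of the form novel_ and a running number) was taken when its counts summed over all 12 libraries was at least 20 and under 500. A further 16 predicted miRNAs, singled out in earlier results of these data, were left out by name, and 6 of those lay within the limits, so the members are what remained of 84 and their differences between groups describe a trimmed list. The summed count is therefore no finding. Just inside the lower limit stood novel_146, novel_237 and novel_273 with 20 counts each, and just outside it novel_140 and novel_181 with 19 each. Just inside the upper limit stood novel_78 with 374 counts, novel_83 with 378 and novel_218 with 475, and just outside it novel_259 with 515 and novel_311 with 521.

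Small RNA was sequenced from leaves of E. pubescens, a medicinal perennial of the barberry family, grown in sand in a growth chamber from seedlings of similar age and size. Plants were irrigated with nutrient solution without inorganic phosphate (0 mmol/L, -P) or with it (1 mmol/L, +P), and leaves were taken after 30 days (30d) or 90 days (90d). This gave 4 groups of 3 libraries each, 30d -P, 30d +P, 90d -P and 90d +P, and the replicates of each carry the letters A, B and C. No mutant, transgene or other agent was named in the labels, and each library is of whole leaf tissue, in which fewer cells of a type and less miRNA per cell cannot be told apart.

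Plant miRNAs are short RNAs that a Dicer-like enzyme cuts from a hairpin transcript. Bound to an Argonaute protein, they guide the cleavage or translational repression of mRNAs that pair with them almost completely. Conserved families such as miR166, which acts on transcription factors of leaf polarity, are usually abundant, whereas miRNAs that are predicted from a genome alone and shared with few other species are usually rare. The members carry only running numbers, and their sequences, hairpins, positions and targets were not analysed here, so no function is given for any of them.

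All 12 libraries together held 11526632 miRNA counts, of which the members held 10326, or 0.0896%. Library totals ran from 380316 to 1466897 counts, a ratio of 3.86, and a count of 0 in a single library therefore allowed a level of up to 2.05 CPM (counts scaled to a library total of 1000000) in the deepest library and 7.89 CPM in the shallowest one, with 3 counts as the limit. A single known miRNA, aqc-miR166e, took between 35.4% and 73.1% of the counts of a library. One library stood apart in what follows: in 30d +P A the members held 0.290% of counts (exact Clopper-Pearson 95% interval 0.277 to 0.305), the highest share of the 12, against 0.0534% (0.0497 to 0.0573) in 90d -P A, the lowest. The group levels and the counts of members by group are given with and without 30d +P A.

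The median member had 92 counts over the whole series. Mean levels ran from 1.60 CPM for novel_273 to 51.9 CPM for novel_183. Of the 936 values of 78 members in 12 libraries, 219 (23.4%) were 0, 217 were 1 to 3 counts and 313 were at least 10 counts. Most values of single members in single libraries were thus under 10 counts.

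**Figure D1:**
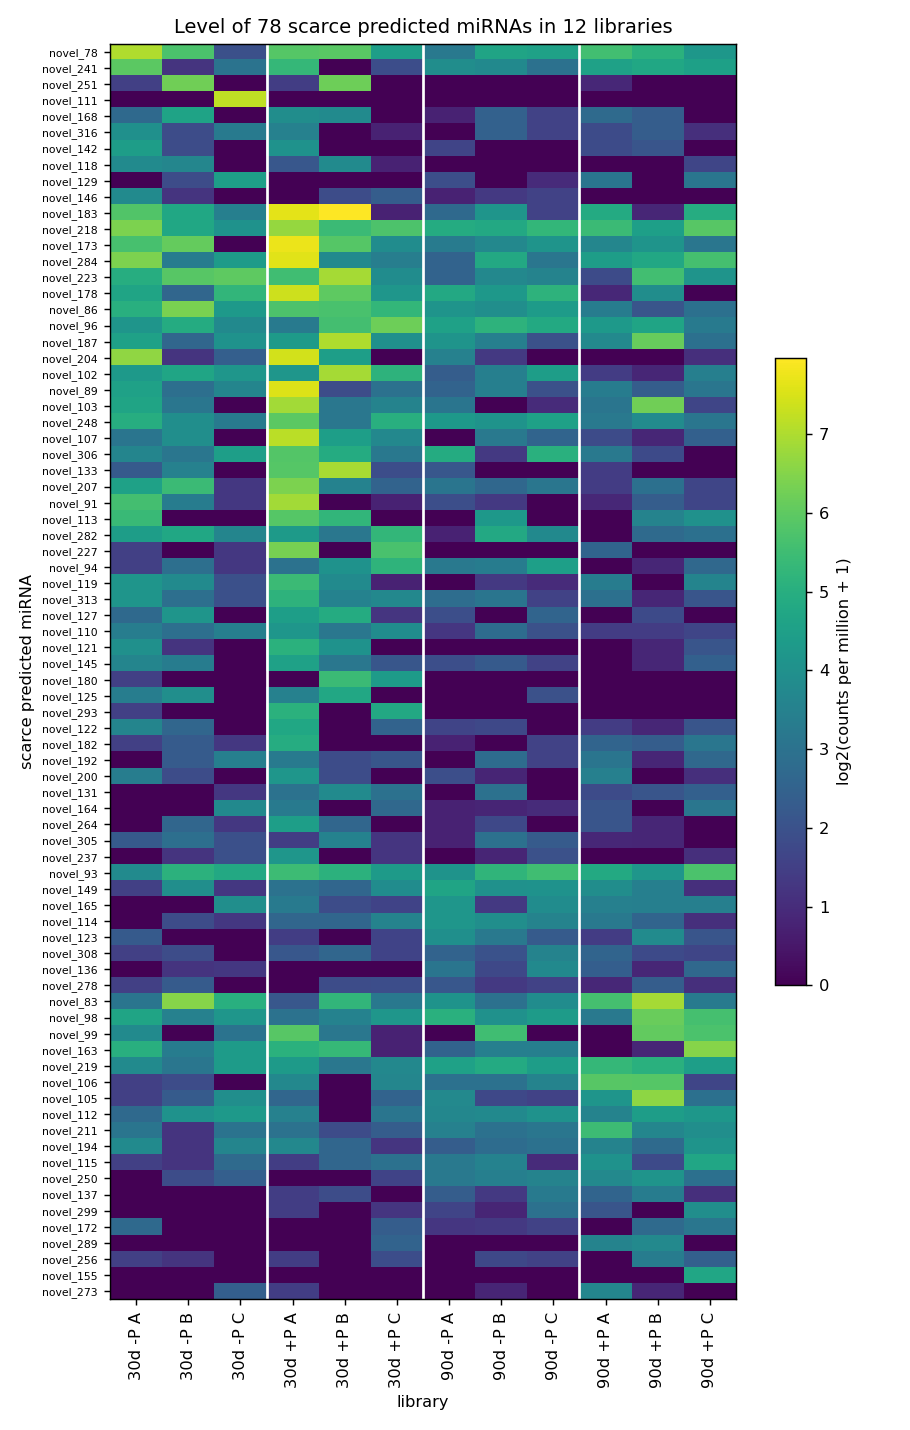
Level of each of the 78 scarce predicted miRNAs (vertical axis, ordered by the group with the highest mean) in the 12 libraries (horizontal axis, white lines part the groups). Colour gives log2(CPM + 1), and the darkest cells are the 219 values of 0. The brightest cells lie in 30d +P A and 30d +P B, and novel_111 and novel_155 have a single lit cell each.

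Most members were seen under every condition. At a threshold of 1 count, 63 of the 78 were detected in all 4 groups, 10 in 3 groups, 3 in 2 groups and 2 in a single group. By library, 22 members were detected in all 12 libraries, 49 in at least 9 and 14 in 6 or fewer. Detection in a whole group differed little: 74 members had a count in at least 1 library of 30d -P, 74 of 30d +P, 69 of 90d -P and 73 of 90d +P. Detection in every library of a group was much rarer, at 36 members in 30d -P, 42 in 30d +P, 47 in 90d -P and 43 in 90d +P.

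The members missing from a group were few enough to name. Those at 0 in 30d -P were novel_137, novel_155, novel_289 and novel_299. Those at 0 in 30d +P were novel_111, novel_129, novel_136 and novel_155. In 90d -P, the group with the most reads, 9 members were at 0, namely novel_111, novel_118, novel_121, novel_155, novel_180, novel_227, novel_251, novel_289 and novel_293. In 90d +P the 5 at 0 were novel_111, novel_125, novel_146, novel_180 and novel_293. Over the pooled reads of a group, a count of 0 allowed a level of up to 1.499 CPM in 30d -P, 1.24 CPM in 30d +P, 0.793 CPM in 90d -P and 0.904 CPM in 90d +P, so these members were below those levels and not shown to be absent.

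The number of members detected in a single library ran from 50 in 30d -P C to 68 in 30d +P A. By group it was 58 ± 6.93 in 30d -P, 61.3 ± 7.02 in 30d +P, 59.3 ± 2.31 in 90d -P and 60.3 ± 1.15 in 90d +P (mean ± SD, n = 3 libraries each), and the ranges of all 4 groups overlapped. These libraries differed in depth, so the number expected at the lowest library total, 380316 counts, was also computed for each. At that equal depth 57.9, 53.9 and 43.9 members were expected in 30d -P A, B and C, and 64.8, 54 and 49.4 in 30d +P A, B and C. The corresponding numbers were 47.1, 50.7 and 48.1 in 90d -P and 49.6, 47.6 and 52.2 in 90d +P. At equal depth the spread among the 3 replicates of a 30d group was wider than the whole range of the 90d libraries. Over the 3 libraries of a group, each thinned to that total, 71.8 members were expected in 30d -P, 72.5 in 30d +P, 64.6 in 90d -P and 68.6 in 90d +P.

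**Figure D2:**
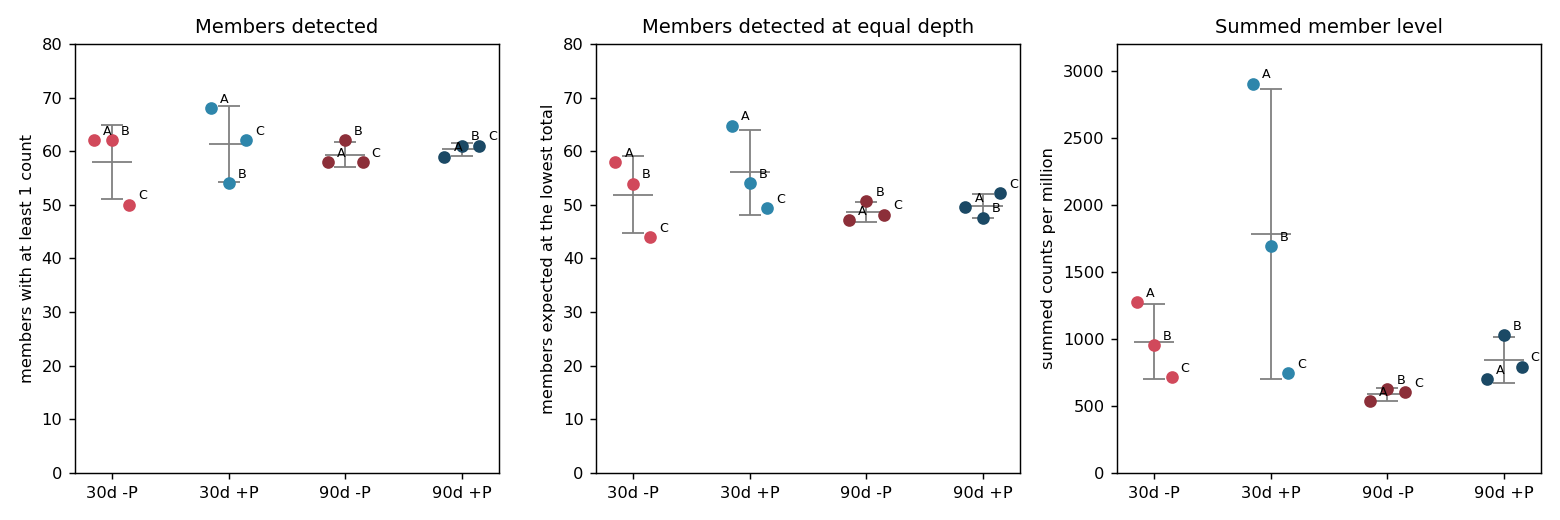
Members detected with at least 1 count (left), members expected after thinning every library to the lowest total of 380316 counts (middle) and summed CPM of the 78 members (right), for each library of the 4 groups on the horizontal axis. Points are libraries with their replicate letter, and grey bars give the mean ± SD of 3. At equal depth 30d -P C has the fewest members (43.9) and 30d +P A the most (64.8), and 30d +P A is also the highest in summed level (2904 CPM).

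The summed level of the members was lowest in 90d -P and varied most within 30d +P. It was 1272, 953 and 715 CPM in 30d -P A, B and C, and 2904, 1693 and 743 CPM in 30d +P A, B and C. At 90d it was 534, 626 and 601 CPM in -P and 698, 1029 and 792 CPM in +P. By full library totals every 90d -P library was thus below every library of the other 3 groups, and 30d -P and 30d +P overlapped. With aqc-miR166e taken out of the totals the 90d -P libraries were no longer apart. 90d -P A then stood at 1520 CPM, above 30d -P C (1430 CPM), 30d +P C (1393 CPM) and 90d +P C (1516 CPM). By full totals the means were 980 ± 279 CPM in 30d -P, 1780 ± 1083 CPM in 30d +P, 587 ± 47.2 CPM in 90d -P and 840 ± 170 CPM in 90d +P (SD, n = 3). Without 30d +P A the mean of 30d +P was 1218 ± 672 CPM (SD, n = 2). No test was made of this sum, because the members were chosen from the same counts.

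Pooling the counts of each group gave 1910 member counts of 2001301 in 30d -P (954 CPM), 3402 of 2421543 in 30d +P (1405 CPM), 2211 of 3784580 in 90d -P (584 CPM) and 2803 of 3319208 in 90d +P (844 CPM). The order of the groups rested on single libraries and on the denominator. Without 30d +P A the pooled level of 30d +P was 939 CPM, below that of 30d -P, and without 30d +P C it was 2422 CPM. With library totals multiplied by TMM factors, which set the libraries to a common level of most miRNAs, the pooled levels were 869 CPM in 30d -P, 1197 CPM in 30d +P, 630 CPM in 90d -P and 1118 CPM in 90d +P, so that 90d +P stood above 30d -P. With aqc-miR166e taken out of the totals they were 1840, 2487, 1428 and 2435 CPM in the same order. In each of these 3 ways of scaling 90d -P was the lowest group and 30d +P the highest.

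Single members were most often highest in 30d +P, and this too rested on 30d +P A. The pooled level was highest in 30d +P for 36 of the 78 members, in 90d +P for 20, in 30d -P for 14 and in 90d -P for 8, and lowest in 90d -P for 29. Without 30d +P A the highest group was 30d -P for 29 members, 90d +P for 23, 30d +P for 18 and 90d -P for 8. With TMM factors in the totals the numbers were 31 for 30d +P, 28 for 90d +P, 13 for 30d -P and 6 for 90d -P, and with TMM factors but without 30d +P A they were 15, 32, 24 and 7 in the same order. At least 50% of the summed pooled CPM lay in 30d +P for 19 members, in 90d +P for 10, in 30d -P for 6 and in 90d -P for 2, and without 30d +P A for 8, 12, 13 and 2. The same numbers over all miRNAs tested were not computed, so none is shown to be particular to the members.

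In CPM without TMM factors, the balance between phosphate levels turned on the same library. The mean of the pooled levels was higher at +P than at -P for 54 members and lower for 24, but without 30d +P A it was higher at +P for 38 and lower for 40. With TMM factors the split was 59 to 19, and without 30d +P A 49 to 29. The mean was higher at 30d than at 90d for 51 members and lower for 27, and without 30d +P A for 47 and 31. With TMM factors this split was 46 to 32, and without 30d +P A 40 to 38. These splits were not computed over all 172 miRNAs tested, so they are not shown to be particular to the members. The median log2 fold change of -P against +P over all tested was also below 0, at -0.16 at 30d and -0.41 at 90d.

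Library 30d +P A held the highest CPM of the 12 libraries for 25 of the 78 members (32.1%), against 15 of the 71 predicted miRNAs with 500 or more counts (21.1%), 1 of the 17 known miRNAs with at least 20 counts (5.88%) and 42 of all 172 miRNAs tested (24.4%). With TMM factors it did so for 19 members (24.4%) and for 26 of all tested (15.1%). Its 1668 member counts were spread over many members, since the 10 largest made up 55.1% of them, led by novel_173 with 121 counts, novel_183 with 114 and novel_284 with 112. Replicates A and B of 30d -P and 30d +P together held the highest CPM for 44 members (56.4%), against 51.7% of all tested, and 28 members had no count in 30d -P C. The share of aqc-miR166e in 30d +P A was 35.4%, the lowest of the 12 libraries. Its part in these values was not tested.

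Replicates of a group differed by more than counting for nearly every member. As a coefficient of variation among replicates, the root mean square of the 4 group SDs was divided by the mean CPM of all 12 libraries. It therefore weighs most the groups where a member is high and is not the variation within a single group. Its median was 121% for the members, where counting alone, divided alike, would give a median of 37.9%. For 77 of the 78 members it was above the counting value and for 61 it was over 2 times as large. The same medians were 65.8% and 5.78% for the predicted miRNAs with 500 or more counts, 52.3% and 11.2% for the known miRNAs and 89.1% and 17.7% for all 172 tested. Of the members, 14 (17.9%) had at least 50% of their counts in a single library, against 3 (4.23%) of the more abundant predicted miRNAs, 1 (5.88%) of the known ones and 19 (11.05%) of all tested. The library was 30d +P A for 6 of those 14 members and 30d +P C for 3. The classes differ in summed counts, by which the members were chosen, and low counts alone can raise the share held by 1 library. The contrast between classes may thus follow in part from that choice.

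The steadiest members were chosen for a small spread over the 12 libraries, so a lack of such concentration in them follows from that choice. Among members detected in all 12 libraries, novel_93, novel_219, novel_218, novel_194 and novel_96 had the smallest coefficients of variation over the libraries, 41.3%, 46.1%, 57.7%, 61.2% and 67.6%. novel_93 had 7, 26 and 19 counts in 30d -P A, B and C, 25, 13 and 28 in 30d +P, 23, 48 and 46 in 90d -P and 33, 21 and 47 in 90d +P. Its mean level was 24.7 ± 10.6 CPM in 30d -P, 32.3 ± 12.3 CPM in 30d +P, 32.4 ± 14.9 CPM in 90d -P and 32.2 ± 17.7 CPM in 90d +P (SD, n = 3), with all 4 groups overlapping. novel_218, the member with the most counts, had 41.4 ± 35.97 CPM in 30d -P, 66.0 ± 32.3 CPM in 30d +P, 31.5 ± 5.80 CPM in 90d -P and 40.8 ± 18.5 CPM in 90d +P, again overlapping. novel_194 lay between 1.31 and 16.5 CPM over the 12 libraries and novel_96 between 8.71 and 72.9 CPM. novel_78, the third by counts, was far less even, with 128 CPM in 30d -P A and 2.85 CPM in 30d -P C, the highest and the lowest of its 12 libraries within a single group.

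Only 2 members had every count in 1 group, and each had them in 1 library. novel_111 had 104 counts in 30d -P C, a level of 148 CPM, and 0 counts in the other 11 libraries. novel_155 had 23 counts in 90d +P C, 25.3 CPM, and 0 counts in the other 11. No member was restricted to a group and present in more than 1 of its libraries (0 of 78), and leaving out either library left a single restricted member. Without 30d -P A the number rose to 4, because novel_180 and novel_293 have 1 count each in that library and otherwise only counts in 30d +P, and without 30d +P C it was 3.

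By a looser measure, at least 90% of the summed pooled CPM in 1 group, 5 members were restricted: novel_111 in 30d -P, novel_180, novel_227 and novel_293 in 30d +P, and novel_155 in 90d +P. The shares of the 3 in 30d +P were 97.4% for novel_180, 94.6% for novel_227 and 98.0% for novel_293. novel_180 had 16 counts in 30d +P B, 29 in C and 0 in A, 1 count in 30d -P A, and 0 in the other 8 libraries. novel_293 had 19 counts in 30d +P A, 40 in C and 0 in B, 1 count in 30d -P A, and 0 elsewhere. novel_227 had 46 counts in 30d +P A, 74 in C and 0 in B, 1 count each in 30d -P A and C, and 6 in 90d +P A. Each of the 3 thus had a library of its leading group at 0.

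Restriction to a time or a phosphate level was as rare. novel_180 and novel_293 were the only members with all counts at 30d and counts in both groups of it, none had this pattern at 90d (0 of 78) and none at -P (0 of 78). novel_289 alone had all counts at +P, with 7 in 30d +P C, 13 in 90d +P A and 15 in 90d +P B, so 3 of the 6 +P libraries were at 0. At least 90% of the summed CPM lay at 30d for 11 members, at 90d for 3, at +P for 5 and at -P for 1. The same numbers were not computed over all miRNAs tested. novel_251, chosen for its share in 1 library (64.8% in 30d -P B), was a 30d member of another kind: it had 57 counts in 30d -P B and 28 in 30d +P B, or 74.4 and 73.6 CPM, and at most 1 count in any other library. novel_273 had 14 of its 20 counts in 90d +P A.

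**Figure D3:**
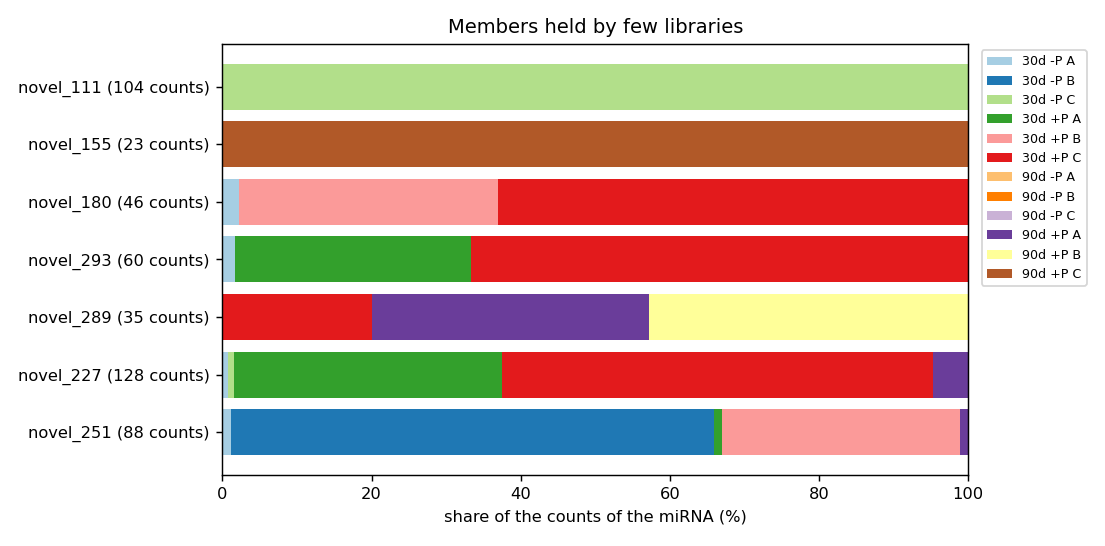
Share of the counts of each of 7 members (vertical axis, with its total) that lies in each of the 12 libraries (coloured segments, horizontal axis in percent). novel_111 and novel_155 come from 1 library each, novel_180, novel_293 and novel_289 from 3, and novel_251 almost wholly from the B libraries of 30d.

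The first comparison asked how the members differed with phosphate at 30d. All 78 members entered a fit over the 172 miRNAs with at least 20 counts. No member passed an adjusted p of 0.05 by edgeR (quasi-likelihood F test, Benjamini-Hochberg) (0 of 78, against 0% of all 172), the lowest adjusted p being 0.610, and DESeq2 and limma also called 0. At an unadjusted p under 0.05 with a log2 fold change of at least 1, 2 members (2.56%) were higher in 30d -P, against 3.49% of all tested, and 3 (3.85%) were lower, against 2.33%. The median log2 fold change of the members was -0.46, or -0.44 with members at 0 in a group set to their bound, beside -0.16 and -0.15 over all tested, and 29 were above 0 and 48 below.

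The members higher in 30d -P were at 0 in the whole of 30d +P. novel_111 was at least 41.9-fold higher when pooled, from the single library 30d -P C. novel_129 had 0, 2 and 15 counts in 30d -P A, B and C and 0 in all of 30d +P, at least 6.86-fold higher, again mostly from 30d -P C. Leaving out 30d -P C left novel_111 with no count at all, so it reached the lower limit of 20 counts only through 30d -P.

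The members lower in 30d -P were novel_227, novel_293 and novel_180. Each reached the lower limit of 20 counts only through its counts in 30d +P, so that a difference from 30d -P follows in part from how members were chosen, and the values here are a description. The same holds for 11 members in all with 30d +P, 7 with 30d -P, 6 with 90d -P and 9 with 90d +P, among them novel_111, novel_118, novel_121, novel_125, novel_133, novel_136, novel_137, novel_155 and novel_289. In pooled CPM novel_227 was 49.6 times higher in 30d +P (95% counting interval 13.4 to 414, 120 counts against 2). novel_293 was 48.8 times higher (8.42 to 1958, 59 counts against 1) and novel_180 was 37.2 times higher (6.34 to 1501, 45 counts against 1). Fitted over replicates the log2 fold changes were -5.04 ± 1.95, -4.92 ± 1.88 and -4.86 ± 1.94 (SE), and the edgeR quasi-likelihood F test gave each a Benjamini-Hochberg adjusted p of 0.610. All 3 had high counts in 30d +P C, and without that library the number of members under the unadjusted threshold went from 5 to 1, while without 30d -P A, B or C it was 3 in each case. Shares over all tested without a library were not computed, here or in the later comparisons, so such counts describe the members alone. With the replicate letter as a block, novel_180 was no longer under that threshold and novel_133 was, so that 4 of the 5 were shared.

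Without overlap between the 3 libraries of each group, a weaker criterion, 3 members (3.85%) were lower in 30d -P and 0 higher, against 4.07% of all tested in either direction. They were novel_94, novel_114 and novel_131, named here after their values were seen. novel_131 had 0, 0 and 1.42 CPM in 30d -P A, B and C and 6.96, 13.1 and 6.82 CPM in 30d +P. With TMM factors novel_114 and novel_131 still did not overlap, and novel_94 did. novel_114 had 0 counts in 30d -P A, where 3 counts were 5.63 CPM, above its 5.22 and 5.26 CPM in 30d +P A and B. Its lack of overlap at 30d is therefore not shown beyond what depth allows.

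The second comparison asked the same at 90d. No member passed an adjusted p of 0.05 by edgeR (quasi-likelihood F test, Benjamini-Hochberg) (0 of 78, against 2.33% of all 172), with a lowest adjusted p of 0.417, and DESeq2 and limma called 0. Under the unadjusted threshold 0 members (0%) were higher in 90d -P, against 4.07% of all tested, and 3 (3.85%) were lower, against 2.91%. The median log2 fold change was -0.65, or -0.60 with bounds, beside -0.41 and -0.40 over all tested, and 25 members were above 0 and 50 below. A shift of all tested miRNAs of this size depends on the scaling, and with library totals alone the median over all tested moved by 0.34.

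The 3 lower members were novel_289, novel_155 and novel_105. novel_289 had 0 counts in all of 90d -P and 13, 15 and 0 in 90d +P A, B and C, at least 10.6-fold higher in 90d +P when pooled, and the edgeR quasi-likelihood F test gave a Benjamini-Hochberg adjusted p of 0.417. novel_155 was at least 8.74-fold higher in 90d +P, all from the library 90d +P C. Both novel_289 and novel_155 reached the lower limit of 20 counts only through 90d +P, so their values here are a description. novel_105 had 18, 3 and 2 counts in 90d -P and 20, 117 and 6 in 90d +P, or 5.56 ± 5.97 and 39.98 ± 49.4 CPM (SD, n = 3), and its groups overlapped. Its log2 fold change of -2.98 ± 1.37 (SE) had a Benjamini-Hochberg adjusted p of 0.565 (edgeR quasi-likelihood F test), and without 90d +P B it was -1.38.

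Single libraries also moved this count. The number under the unadjusted threshold was 1 without 30d -P B or 90d -P C, 5 without 90d +P B, 6 without 30d +P B and 9 without 90d +P C. Shares over all tested were not computed for these omissions. Libraries of the groups did not overlap for 10 members (12.8%), 7 higher in 90d -P and 3 lower, against 19.2% of all tested. With TMM factors 5 of the 7 and all 3 of the lower ones remained, among them novel_178 with 27.0, 18.2 and 34.2 CPM in 90d -P against 0.83, 14.0 and 0 CPM in 90d +P. TMM factors also added novel_194 as lower in 90d -P. Shares over all tested with TMM factors are not given for the overlaps in this or the other comparisons. The lower ones without TMM factors were novel_182, novel_211 and novel_241, and novel_241 had 13.9, 12.9 and 6.84 CPM in 90d -P against 22.5, 25.6 and 22.0 CPM in 90d +P.

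**Figure D4:**
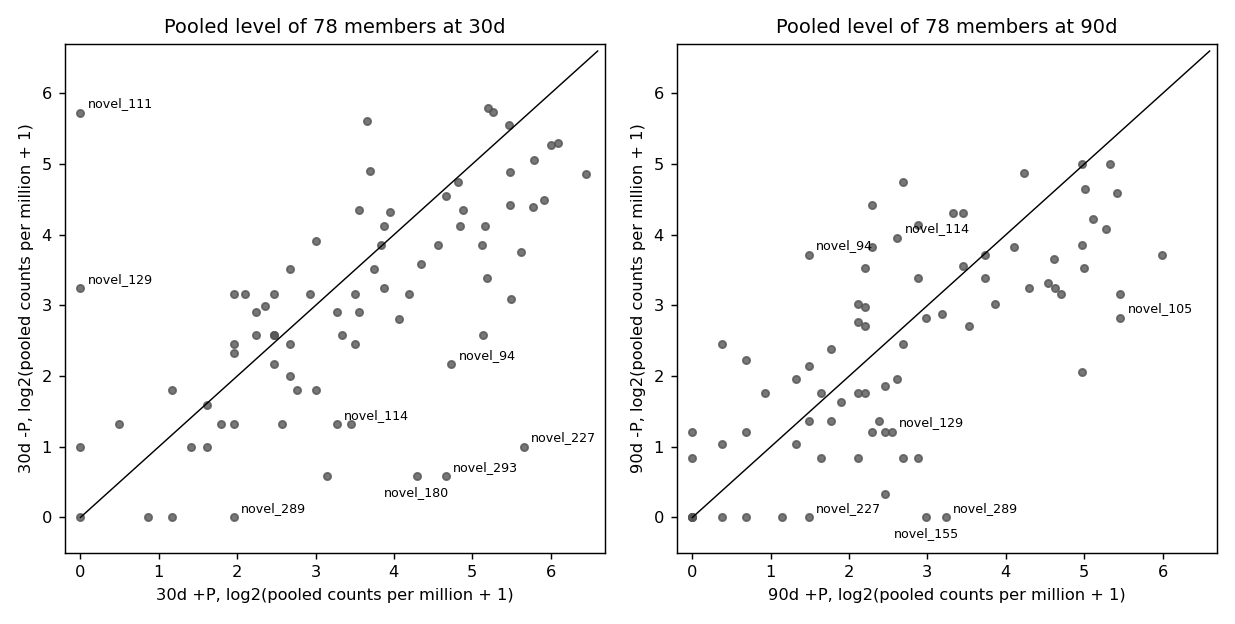
Pooled level of each member in +P (horizontal axis) and -P (vertical axis) at 30d (left) and 90d (right), both as log2(pooled CPM + 1), with the line of equal levels. Points on an axis are at 0 in a group. At 30d novel_111 and novel_129 lie far above the line and novel_227, novel_293 and novel_180 far below it, and at 90d novel_155 and novel_289 have no count in -P.

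The third comparison followed the members from 30d to 90d under -P. No member passed an adjusted p of 0.05 by edgeR (quasi-likelihood F test, Benjamini-Hochberg) (0 of 78, against 0% of all 172), with a lowest adjusted p of 0.402, and DESeq2 and limma called 0. Under the unadjusted threshold 3 members (3.85%) were higher at 90d, against 4.07% of all tested, and 5 (6.41%) were lower, against 5.23%. The median log2 fold change was -0.56, or -0.36 with bounds, beside -0.13 and -0.07 over all tested, and 27 members were above 0 and 49 below.

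The members higher at 90d were low in every 30d -P library. novel_114 had 0, 2 and 1 counts in 30d -P and 25, 19 and 11 in 90d -P, or 1.35 ± 1.31 and 14.2 ± 3.28 CPM (SD, n = 3), and the groups did not overlap. The log2 fold change stood at 3.33 ± 1.24 (SE), and the edgeR quasi-likelihood F test gave a Benjamini-Hochberg adjusted p of 0.402. novel_123 had 2, 0 and 0 counts in 30d -P and 21, 11 and 4 in 90d -P, again without overlap, with a log2 fold change of 3.35 ± 1.44. novel_137 had 0 counts in 30d -P and 6, 2 and 9 in 90d -P, at least 3.0-fold higher when pooled.

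Those lower at 90d were mostly members that came from 1 or a pair of 30d libraries. novel_111 was at least 65.6-fold lower and novel_251 at least 36.6-fold lower, each led by 1 library. novel_118 had 7, 9 and 0 counts in 30d -P and 0 in all of 90d -P, at least 10.1-fold lower, and novel_121 was at least 5.67-fold lower. Of these, novel_111 and novel_118 reached the lower limit of 20 counts only through 30d -P, so their values here are a description. novel_223 differed, with 30.0, 58.7 and 62.7 CPM in 30d -P and 4.85, 12.1 and 10.7 CPM in 90d -P, no overlap, and a log2 fold change of -2.39 ± 1.08 (SE).

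The number under the unadjusted threshold was 8, and it was 5 without 30d -P B or 90d -P A and 4 without 90d -P B. Libraries did not overlap for 14 members (17.9%), 11 higher at 90d and 3 lower, against 22.1% of all tested. With TMM factors 10 of the 11 and 2 of the 3 remained, and novel_86 was added as lower at 90d. The higher ones included novel_250, with 0, 2.61 and 4.27 CPM in 30d -P and 8.31, 9.87 and 10.8 CPM in 90d -P. The limit of 3 counts reached 5.63 CPM in 30d -P A, so the low 30d values of novel_114, novel_123, novel_137 and novel_250 lay at or below what 3 counts can show.

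The fourth comparison followed the members from 30d to 90d under +P, and this was the comparison with the most members under the unadjusted threshold. No member passed an adjusted p of 0.05 by edgeR (quasi-likelihood F test, Benjamini-Hochberg) (0 of 78, against 0% of all 172), with a lowest adjusted p of 0.152, and limma called 0, but DESeq2 called 11, of which 5 (6.41%) were higher at 90d, against 8.14% of all 172, and 6 (7.69%) lower, against 9.30%. Under the unadjusted threshold 9 members (11.5%) were higher at 90d, against 11.6% of all tested, and 10 (12.8%) were lower, against 11.6%, so the members' shares were near those of all miRNAs. The share of lower members is a description, because some of them reached the lower limit of 20 counts only through 30d +P. The median log2 fold change was -0.04, also -0.04 with bounds, beside 0.06 over all tested, and 36 members were above 0 and 41 below. The split turned on the scaling: with library totals alone 4 members were higher and 20 lower, and with DESeq2's size factors in edgeR it was 7 and 11. Library totals moved the median of all tested by -0.76 and DESeq2's size factors by -0.25. Shares over all 172 under these scalings were not computed, so neither split is shown to be particular to the members.

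Among members higher at 90d, novel_211 had 4, 1 and 6 counts in 30d +P and 52, 14 and 13 in 90d +P, or 4.56 ± 2.21 and 23.1 ± 17.6 CPM (SD, n = 3), without overlap. The log2 fold change stood at 3.05 ± 1.02 (SE), and the edgeR quasi-likelihood F test gave a Benjamini-Hochberg adjusted p of 0.152. Over the alternatives the adjusted p lay between 0.0606 and 0.328 in edgeR, and it was 0.0212 in DESeq2. novel_250 had 0, 0 and 3 counts in 30d +P and 15, 20 and 6 in 90d +P, with a log2 fold change of 3.91 ± 1.35. novel_136 had 0 counts in 30d +P and 5, 1 and 5 in 90d +P, at least 2.68-fold higher, and novel_105 had a log2 fold change of 3.99 ± 1.46, which rested in part on its 117 counts in 90d +P B. All 4 had no overlap between the groups, and did not with TMM factors either. The limit of 3 counts was, however, 5.22, 7.89 and 2.05 CPM in 30d +P A, B and C. All 90d +P values of novel_136 (4.16, 0.83 and 5.51 CPM) were under that of 30d +P B. So were novel_105 and novel_250 in 90d +P C, at 6.61 CPM each. For these members the lack of overlap is therefore not shown beyond what depth allows.

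Among members lower at 90d, novel_293 was at least 27.0-fold lower and novel_180 at least 20.6-fold lower, each with a 30d +P library at 0. novel_133 had 33, 46 and 4 counts in 30d +P and 2, 0 and 0 in 90d +P, or 57.5, 121 and 2.73 CPM against 1.66, 0 and 0 CPM. In pooled CPM it was 56.9 times higher at 30d (95% counting interval 15.3 to 478), and the fitted log2 fold change stood at -5.39 ± 1.87 (SE), and the edgeR quasi-likelihood F test gave a Benjamini-Hochberg adjusted p of 0.152. The interval covers counting error only. Of the members lower at 90d, novel_293, novel_180, novel_133, novel_125 and novel_227 reached the lower limit of 20 counts only through 30d +P, so their values here are a description. The 11 members that DESeq2 called were novel_98, novel_105, novel_211, novel_219 and novel_250, higher at 90d, and novel_86, novel_102, novel_107, novel_133, novel_178 and novel_204, lower at 90d. Each of them was also under the unadjusted threshold in edgeR.

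Without 90d +P A or 90d +P B the number under that threshold went from 19 to 11. Libraries did not overlap for 18 members (23.1%), 7 higher at 90d and 11 lower, against 27.3% of all tested. With TMM factors all 7 remained but only 5 of the 11, and novel_241 was added as higher at 90d. One of the 7 was novel_219, among the steadiest members, with 19.2, 7.89 and 12.3 CPM in 30d +P and 38.3, 32.2 and 20.9 CPM in 90d +P. In both comparisons over time, the age of the plant and the time on a treatment cannot be told apart.

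The last comparison asked whether the difference between -P and +P was itself different at 90d and 30d. No member passed an adjusted p of 0.05 for this interaction by edgeR (quasi-likelihood F test, Benjamini-Hochberg) (0 of 78, against 0% of all 172), with a lowest adjusted p of 0.610, and DESeq2 and limma called 0. Under the unadjusted threshold there were 4 members (5.13%), against 5.81% of all tested: novel_94 with a difference of log2 fold changes of 4.67 ± 1.88, novel_83 with -4.45 ± 1.68, novel_105 with -4.26 ± 1.94 and novel_129, which was at 0 in 30d +P. The number was 8 without 30d +P A and 2 without 90d -P C or 90d +P B. novel_83 had 7.50, 91.4 and 31.3 CPM in 30d -P and 3.48, 36.8 and 8.18 CPM in 30d +P, but 15.9, 6.83 and 13.7 CPM in 90d -P and 48.3, 117 and 8.82 CPM in 90d +P. Its groups overlapped at both times.

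novel_94 and novel_114 had opposite orders at the 2 times. novel_94 had 1.88, 6.53 and 1.42 CPM in 30d -P and 6.96, 15.8 and 35.5 CPM in 30d +P, but 8.31, 9.11 and 21.5 CPM in 90d -P and 0, 0.83 and 5.51 CPM in 90d +P. novel_114 had 0, 2.61 and 1.42 CPM in 30d -P and 5.22, 5.26 and 10.9 CPM in 30d +P, but 17.3, 14.4 and 10.8 CPM in 90d -P and 8.32, 4.96 and 1.10 CPM in 90d +P. In both, every -P library was below every +P library at 30d and above every +P library at 90d, an opposite order without overlap that 2 members (2.56%) had, against 1.74% of all 172 tested. The gaps were small beside counting: in novel_94 the highest 30d -P library had 5 counts and the lowest 30d +P library 4. In novel_114 the limit of 3 counts in 30d -P A, 5.63 CPM, was above the levels of 30d +P A and B. With TMM factors novel_94 overlapped at 30d and novel_114 at 90d, and no tested miRNA (0 of 172) had an opposite order without overlap.

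**Figure D5:**
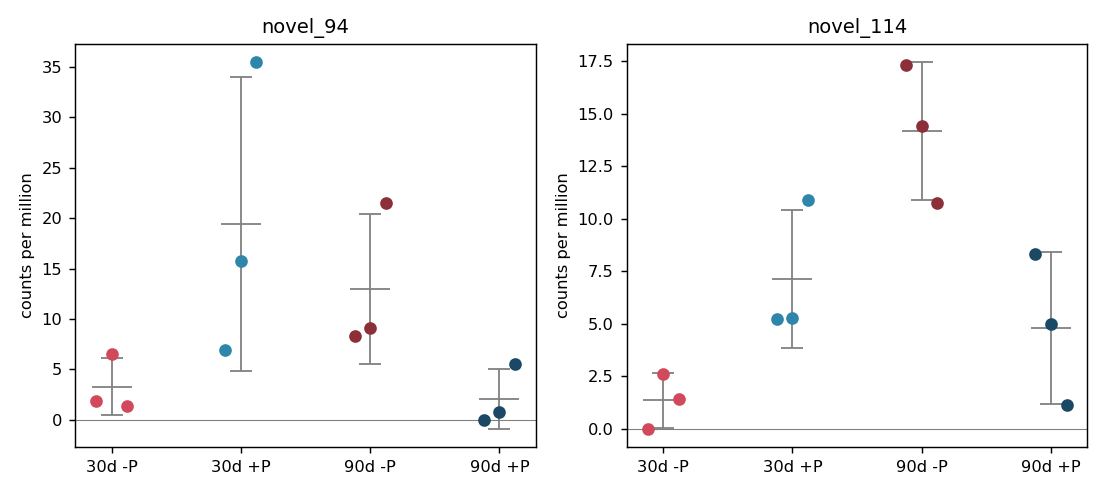
CPM of novel_94 (left) and novel_114 (right) in the 3 libraries of each group (points, horizontal axis), with the mean ± SD of 3 as grey bars. In both members the -P libraries lie below the +P libraries at 30d and above them at 90d.

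Some members resembled each other over the 12 libraries. Of the 3003 pairs of members, 25 had a Pearson r over 0.8 on log2(CPM + 1), where the median pair had 0.06. The most alike were novel_227 and novel_293 (r = 0.94, Spearman's rho = 0.80), which share their counts in 30d +P A and C, and novel_125 and novel_127 (r = 0.91, rho = 0.90), both at no more than 4.89 CPM outside the A and B libraries of 30d. novel_91 and novel_142 followed with r = 0.90 and novel_119 and novel_183 with r = 0.89. These values describe 12 libraries that share depth and composition, zeros in common raise them, and whether such pairs share reads was not analysed here.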

How the data were processed

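Per the labels, libraries were made with a small RNA kit that joins adaptors to both ends before reverse transcription and PCR. The authors used miREvo and mirdeep2 to predict miRNAs by their hairpins, and the submitters' processing notes name Bowtie and DESeq2. The miRBase release, genome build and mismatch rule were not given in the sources used here. One table of raw read counts was deposited by the authors for 220 miRNAs in 12 libraries, with TPM values that equal counts scaled to a library total of 1000000 (CPM) (largest difference 4.9e-10). Group means deposited by the authors were not used, and 0 per-sample columns were left out. Because no molecular identifiers were added, intervals (Clopper-Pearson, 95%) and limits (3 counts) cover counting error only. The study describes 3 biological replicates, and the labels give only letters, so p-values measure the spread between these libraries.

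Counts were tested with the two-sided quasi-likelihood F test of edgeR 4.0.16 (R 4.3.3, the older method of glmQLFit), TMM normalization and 1 model of 4 groups without a covariate, over the 172 miRNAs with at least 20 counts, which kept all 78 members. p-values were adjusted by Benjamini-Hochberg over all 172. The standard error was the absolute log2 fold change divided by the square root of F. The common dispersion was 0.817 (biological coefficient of variation 90.4%). A member at 0 in a group got a lower bound from 3 counts over the pooled total. The scripts were tested on simulated data with a smaller spread than these data, so that test does not show how readily scarce members would be called.

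Named were members with every count in 1 group, up to 3 higher and 3 lower per comparison by unadjusted p, the 3 with the most and the fewest counts, the 5 steadiest, the 5 most held by 1 library, and those held by 1 time or phosphate level. Other names were chosen after their values were seen. Members and lists were chosen with earlier results of these data known.

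Deviations from the group means of same-lettered libraries correlated at 30d with r of 0.40, 0.27 and 0.23 for A, B and C, all over 0.1, so the letters were taken to pair the 30d libraries. They did not in the other comparisons (r from -0.25 to 0.21). The source of this pairing is the data alone. Alternatives were other scalings, filters, tools (DESeq2 1.42.0, limma 3.58.1 on log2 TPM with a pseudocount of 1 or 10), a replicate block and leaving out each library. A block in the 30d libraries alone, TMM-scaled pooled levels, overlaps and group counts, and the group counts without 30d +P A, were chosen after seeing the data. In DESeq2, 23 of 172 adjusted p-values for 90d +P against 30d +P were not given and counted as no call.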

Additional observations from a re-analysis of the deposited data

Results flagged for a closer look

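In 2 members the order of -P and +P libraries was opposite at 30d and 90d in every library, as in 3 (1.74%) of all 172 miRNAs tested, and both were named after their values were seen. For novel_94 every -P library was below every +P library at 30d and above every one at 90d, and the difference between the log2 fold changes was 4.67, with a Benjamini-Hochberg adjusted p of 0.648 for the interaction (edgeR quasi-likelihood F test) and a range of 1.95 to 6.87 over the alternatives. For novel_114 the same order gave a difference of 3.36, with an adjusted p of 0.732 in that test and a range of 1.31 to 4.09. Neither difference passed the test of the difference itself. With TMM factors in the totals, novel_94 overlapped at 30d and novel_114 at 90d. The order of novel_114 at 30d is also not shown beyond what the depth of 30d -P A allows.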

How the results depend on the processing

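Counts of members by edgeR at an adjusted p of 0.05 stayed at 0 in every comparison under every alternative, with the exception of DESeq2, which called 11 for 90d +P against 30d +P (main 0), with log2 fold changes of -6.09 for novel_133, 2.85 for novel_211 and 3.91 for novel_250. Of those 11, 5 (6.41% of members) were higher, against 8.14% of all 172 tested, and 6 (7.69%) lower, against 9.30%. Counts under the unadjusted threshold moved with the filter, the tool and single libraries. Shares over all tested miRNAs under these alternatives were not computed, so the counts are not shown to be particular to the members. For 30d -P against 30d +P (main 5) they were 0 with filterByExpr, 0 with at least 10 counts in 6 libraries, 1 with DESeq2, 8 with limma on log2(TPM + 1), and 1 to 6 on leaving out a library. For 90d -P against 90d +P (main 3) they were 1 with library totals only, 1 with filterByExpr, 1 with the strict filter, 6 with DESeq2, 0 with limma on log2(TPM + 10), 6 with edgeR's newer method, and 1 to 9 without a library. For 90d -P against 30d -P (main 8) they were 4 with filterByExpr, 1 with the strict filter, 2 with limma on log2(TPM + 10), and 4 to 9 without a library. For 90d +P against 30d +P (main 19) the strict filter gave 6 and leaving out a library 11 to 19. For the interaction (main 4) the strict filter gave 1 and leaving out a library 2 to 8. filterByExpr tested 46 members and the strict filter 23, so fewer could be counted; other causes were not tested. With the replicate block the adjusted count was 0 in each comparison, and the unadjusted counts were 5, 2, 8, 14 and 3 in the order above (5 for 30d in its own libraries), of which 4, 1, 7, 13 and 3 were also under the threshold without the block. At 90d the block took out novel_105 and novel_155 and brought in novel_94. It also brought in novel_94 for 90d +P against 30d +P. Members restricted to 1 group (main 2) were 5 at 90% of summed CPM, 0 when 2 libraries were required, and 1 to 4 without a library. Pooled levels without aqc-miR166e were 1840 CPM in 30d -P, 1428 CPM in 90d -P and 2435 CPM in 90d +P, and with TMM factors 1118 CPM in 90d +P. Of the 39 log2 fold changes of members under the unadjusted threshold, none had the opposite sign under an alternative, but those of novel_111 and novel_155 were 0 without the library that held all their counts. In a single library 3 counts were 2.05 to 7.89 CPM.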
